A study of Homo sapiens with 16 samples.

Results

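Receptor tyrosine kinase genes were followed through RNA sequencing of 4 human clear cell renal cell carcinoma (ccRCC) lines named A498, 769-P, 786-O and CAKI-2. The 10 genes were MET, AXL, FGFR1, FGFR3, PDGFRA, PDGFRB, EPHA2, PTK7, DDR1 and KIT, taken as a fixed list of 10 rows among the 57773 genes of the count table. The list joined targets of kidney cancer drugs to 3 genes that the study itself had named (FGFR3, PDGFRB and PTK7), so it was not drawn blind to the study. Of the 10 genes, 9 reached the minimum of 60 counts summed over the libraries and were tested, and KIT did not.

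There were 16 libraries in 10 groups. Each line had a library with a non-targeting guide (sgCtrl) and 2 libraries in which KDM5C, a histone H3K4 demethylase gene, was targeted with guide 4 or guide 5 (sgKDM5C). In 786-O and CAKI-2 a further 2 libraries were made with guides 2 and 4 against KDM5D, the Y-linked relative of KDM5C (sgKDM5D). All cells, controls included, had been transduced with a lentivirus that carried Cas9 and a guide. Puromycin resistance is named for the sgCtrl and sgKDM5C vectors, and the resistance gene of the sgKDM5D vectors is not specified. The cells were used as populations rather than clones. The replicates of a targeted group were therefore 2 guides, and both KDM5C guides cut the same exon. With 1 control library per line, the spread behind each p-value came only from the 2 guides of the targeted groups, pooled over lines and partly over genes. Spread between control libraries was not measured, and separate cultures are not stated.

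The libraries held 23398449 to 41617439 counts. KDM5C RNA was at 26.2 to 57.3% of the control of the same line in the 8 sgKDM5C libraries and at 91.5 to 106% in the 4 sgKDM5D libraries. KDM5D is not reported here. Of the renal markers, 10 of 10 had at least 1 count in some library of 3 lines and 9 of 10 in 769-P. A single count is a low bar, which all 5 pericyte and fibroblast markers also met in 786-O and 769-P. PAX8, a renal lineage factor, was at a mean of 168 to 911 CPM, the read count scaled to a common library depth. The 10 renal markers summed to 3259 to 5461 CPM per library. CA9, a hypoxia target typical of ccRCC, was however at 0 in 769-P and in the sgCtrl and sgKDM5C libraries of 786-O, and averaged only 0.0233 CPM in CAKI-2 and 7.02 CPM in A498. Mast cell markers summed to at most 0.0780 CPM, leukocyte markers to at most 0.681 CPM and endothelial markers to at most 3.39 CPM in any library.

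Receptor tyrosine kinases sit in the cell membrane, bind a ligand outside the cell and phosphorylate tyrosines inside it. The phosphotyrosines recruit adaptors such as GRB2 and SHC1, which start the RAS-ERK and PI3K pathways. In kidney cancer the vascular receptors of the tumour stroma, MET and AXL are all targets of clinical inhibitors, and MET and AXL have been tied to resistance and invasion. In the text, CPM is relative to the library total scaled by the trimmed mean of M-values (TMM), and RPKM, which is CPM per kilobase of exon, is the scale used whenever different genes are compared. A line mean is the mean of the sgCtrl and both sgKDM5C libraries, so its SD (n = 3) spans those genotypes.

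MET and AXL were among the top 3 of the 10 genes in every line, and EPHA2 was in 3 lines, with FGFR3 ahead of it in 769-P. Averaged over the 12 libraries that all lines have in common, MET stood at 93.7 RPKM, AXL at 79.1 and EPHA2 at 72.3. DDR1 followed at 18.8, FGFR1 at 15.6, FGFR3 at 11.6, PTK7 at 4.49, PDGFRB at 0.340, PDGFRA at 0.0296 and KIT at 0.00603 RPKM. Among all 58 receptor tyrosine kinases listed, MET was in place 1 or 2 in each line. AXL held place 1 in 769-P, 2 in 786-O and 3 in A498 and CAKI-2. EPHA2 was in place 1 in A498, 2 in CAKI-2, 3 in 786-O and 5 in 769-P. At the other end, PDGFRA and KIT were at or below 0.117 RPKM in each line. With the length of the longest transcript in place of the union of exons, 8 of the 10 genes kept their place in this mean over lines and DDR1 and FGFR1 exchanged places 4 and 5. Within lines that choice moved the top 3 everywhere but in 786-O. DDR1 came to place 2 of the 10 and EPHA2 to place 4 in CAKI-2, FGFR1 to place 3 and AXL to place 4 in A498, and FGFR1 to place 3, FGFR3 to 4 and EPHA2 to 5 in 769-P.

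**Figure D1:**
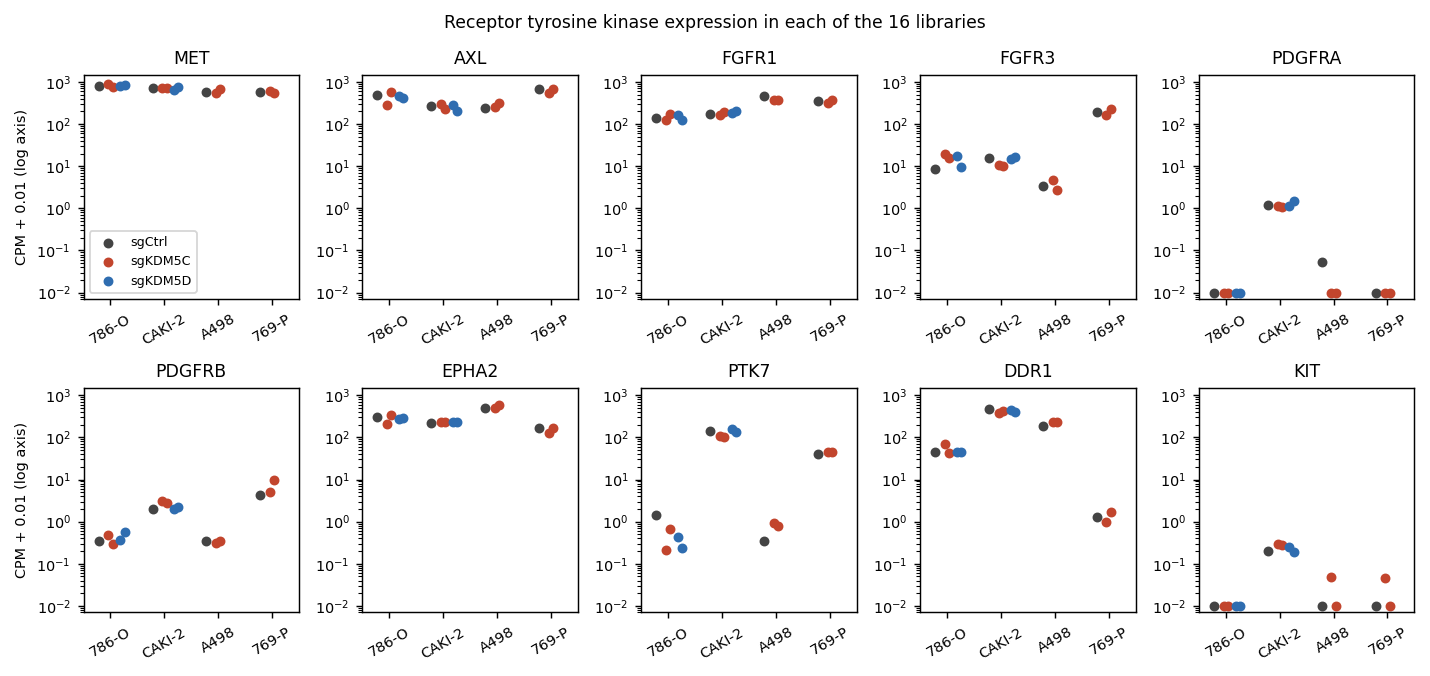
Expression of the 10 receptor genes in each library, as CPM + 0.01 on a log axis, with the 4 lines on the x axis and colour for the genotype (grey sgCtrl, red sgKDM5C, blue sgKDM5D). MET, AXL and EPHA2 stay above 100 CPM in every library, whereas FGFR3, PTK7 and DDR1 move by over 10-fold between lines.

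MET (chr7:116312250-116438431, plus strand, GRCh37), the receptor of hepatocyte growth factor, varied little. In 786-O it was at 816 CPM in sgCtrl, 904 and 744 in sgKDM5C guides 4 and 5, and 820.5 and 868 in sgKDM5D guides 2 and 4. In CAKI-2 the same libraries read 713, 726, 713, 644 and 753 CPM. In A498 the control was at 574 and the sgKDM5C libraries at 535 and 673, and in 769-P the control was at 577 and the sgKDM5C libraries at 608 and 540.0 CPM. The 786-O and CAKI-2 values overlapped, as did those of A498 and 769-P. Line means ran from 821 ± 80.0 CPM (SD, n = 3) in 786-O to 575 ± 33.8 in 769-P, a ratio of 1.43.

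In edgeR's quasi-likelihood test with Benjamini-Hochberg adjustment over all genes, 3 of the 6 line pairs of MET passed an adjusted p of 0.05. MET was higher in 786-O than in A498 by a log2 difference of 0.47 (SE 0.124, adjusted p = 0.00383), than in 769-P by 0.51 (SE 0.125, adjusted p = 0.00297), and higher in CAKI-2 than in 769-P by 0.32 (SE 0.124, adjusted p = 0.0351). Of the neighbours in the order, 786-O lay over CAKI-2 by 0.19 (95% interval -0.07 to 0.46) and A498 over 769-P by 0.05 (-0.22 to 0.31), with 0 inside both intervals. CAKI-2 lay over A498 by 0.27 (0.01 to 0.54), an interval that left out 0, with an adjusted p of 0.0658. Without guide 4 or guide 5 of CAKI-2 sgKDM5C, or guide 5 of 769-P sgKDM5C, the CAKI-2 to 769-P difference missed the threshold in edgeR (log2 0.36, 0.36 and 0.26, adjusted p = 0.0578, 0.0553 and 0.127). It also did with the sgCtrl and sgKDM5C libraries alone (adjusted p = 0.0556). The CAKI-2 to A498 difference passed under 5 alternatives: DESeq2 (adjusted p = 0.0312), and in edgeR RLE size factors (0.0429), the filterByExpr filter (0.0244), no filter beyond 1 count (0.00542) and leaving out guide 5 of A498 sgKDM5C (log2 0.38, 0.0297).

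HGF, the ligand of MET, was close to undetected. Over the 3 shared libraries of each line it had 1 count in A498, 2 in 769-P, 2 in CAKI-2 and 0 in 786-O. A count of 0 over a line allows up to 3 counts, and all such limits cover counting error only. HGF fell below the mean of 20 counts set for naming a ligand and is named for its role. The factors that process HGF outside the cell were uneven. SPINT2, an inhibitor of the HGF-activating proteases, averaged 608 CPM in CAKI-2, 364 in 769-P, 135 in 786-O and 4.45 in A498, and SPINT1, its relative, was at 69.9 CPM in CAKI-2 and at most 2.33 in the other lines. HPN, a protease that can activate HGF, was at 5.28 CPM in A498 and at most 0.462 elsewhere.

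AXL (chr19:41725128-41767671, plus strand), which binds GAS6 and PROS1 and is tied to invasive growth, was highest in 769-P. There it was at 680.3 CPM in sgCtrl and 540.0 and 666 in the sgKDM5C libraries. In 786-O the control was at 502 CPM, the sgKDM5C guides at 279 and 581, and the sgKDM5D guides at 460.0 and 419.7. CAKI-2 read 268, 306, 234, 283 and 208 CPM in the same order, and A498 read 242, 253 and 323. The guide 4 library of 786-O sgKDM5C fell inside the range of CAKI-2 and A498, apart from the other 4 libraries of its line. AXL was higher in 769-P than in CAKI-2 by a log2 difference of 1.22 (SE 0.224, adjusted p = 0.000246) and than in A498 by 1.21 (SE 0.224, adjusted p = 0.000226, both by edgeR).

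The weaker AXL calls rested on individual libraries. AXL was higher in 786-O than in CAKI-2 by 0.75 (SE 0.222, adjusted p = 0.00868) and than in A498 by 0.73 (SE 0.222, adjusted p = 0.00872). Without guide 5 of 786-O sgKDM5C these became 0.33 (adjusted p = 0.0938) and 0.32 (adjusted p = 0.103) in edgeR. Without guide 5 of CAKI-2 sgKDM5C the first was 0.62 (adjusted p = 0.0664), and without guide 4 of A498 sgKDM5C the second was 0.62 (adjusted p = 0.0624). The 786-O to 769-P difference of -0.47 (adjusted p = 0.0892) moved the other way, to -0.89 (adjusted p = 0.000600) without guide 5 of 786-O sgKDM5C, and it also passed without the count filter (-0.45, adjusted p = 0.00160). CAKI-2 and A498 differed by -0.01 (95% interval -0.49 to 0.46). An antisense long non-coding RNA gene overlaps AXL exons, and the strand setting of the counting is not given in the sources used here.

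The AXL ligands were expressed in all lines, in unlike proportions. GAS6 averaged 81.3 ± 16.6 CPM in 786-O, 36.3 ± 4.32 in A498, 14.4 ± 2.53 in 769-P and 13.1 ± 1.75 in CAKI-2 (SD, n = 3). PROS1 ran from 66.6 ± 5.77 CPM in 769-P and 36.8 ± 5.17 in A498 to 8.50 ± 1.51 in CAKI-2 and 4.55 ± 0.105 in 786-O. Per length, GAS6 was thus at 13.5 RPKM and PROS1 at 0.864 in 786-O, against 2.40 and 12.6 in 769-P.

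EPHA2 (chr1:16450832-16482564, minus strand), a receptor of membrane-bound ephrin-A ligands, was highest in A498. A498 read 503, 507 and 601 CPM and did not overlap any other line. 786-O read 300.3 CPM in sgCtrl, 205 and 344 in sgKDM5C, and 268 and 291 in sgKDM5D. CAKI-2 was the tightest, at 215, 228, 231, 233 and 229 CPM, and 769-P the lowest, at 165, 125 and 168. By edgeR, A498 exceeded 786-O by 0.92 (SE 0.169, adjusted p = 0.000204) and CAKI-2 exceeded 769-P by 0.56 (SE 0.168, adjusted p = 0.00928), while 786-O and CAKI-2 differed by 0.34 (SE 0.167, adjusted p = 0.0933). The CAKI-2 to 769-P call was lost without guide 4 of 769-P sgKDM5C (0.43, adjusted p = 0.0698), and the 786-O to CAKI-2 difference passed without guide 4 of 786-O sgKDM5C (0.55, adjusted p = 0.00300) and without the count filter (0.36, adjusted p = 0.0146). Of its ligands, EFNA5 was at 33.5 to 58.0 CPM and EFNA4 at 5.86 to 10.8 CPM in the line means. EFNA1 ran from 3.48 CPM in A498 to 18.0 in 769-P, EFNA3 from 0.760 in 769-P to 5.56 in A498, and EFNA2 from 0 in 786-O to 5.37 in 769-P.

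FGFR1 and FGFR3, receptors of fibroblast growth factors, had different line patterns. FGFR1 (chr8:38257733-38326352, minus strand) fell into a lower pair and a higher pair of lines. In the order sgCtrl, sgKDM5C 4 and 5, sgKDM5D 2 and 4, 786-O read 139, 127, 169, 166 and 125 CPM, and CAKI-2 read 176, 163, 191, 182 and 199.8. A498 read 475, 364 and 383 CPM and 769-P 351, 310.3 and 380.4, with no overlap between the pairs. 769-P exceeded CAKI-2 by 0.98 (SE 0.145, adjusted p = 3.54e-05, edgeR). Within the pairs, A498 and 769-P differed by 0.22 (95% interval -0.09 to 0.53) and 786-O and CAKI-2 by -0.28 (-0.59 to 0.03). The latter passed without guide 5 of 786-O sgKDM5C (-0.43, adjusted p = 0.0184). LETM2 on the opposite strand overlaps FGFR1 exons.

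FGFR3 (chr4:1795020-1810599, plus strand) was high in 769-P only among these lines. Its counts there were 4818 in sgCtrl and 4591 and 5425 in sgKDM5C, or 198, 163 and 223 CPM. In the other 3 lines it read 2.70 to 19.9 CPM, so the ranges were far apart. The line means were 195 ± 30.1 CPM in 769-P, 14.7 ± 5.66 in 786-O, 12.3 ± 3.13 in CAKI-2 and 3.58 ± 1.01 in A498 (SD, n = 3). 769-P exceeded 786-O by a log2 difference of 3.80 (SE 0.239, adjusted p = 9.43e-09) and A498 by 5.76 (SE 0.270, adjusted p = 2.27e-10, edgeR). CAKI-2 exceeded A498 by 1.74 (SE 0.248, adjusted p = 2.36e-05), and 786-O and CAKI-2 differed by 0.22 (95% interval -0.26 to 0.70). Per length, FGFR3 stood at 40.2 RPKM in 769-P, place 4 of the 58 receptors, against place 17 in 786-O and 22 in A498 and CAKI-2.

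The FGF ligands also differed by line. FGF2, which binds FGFR1, averaged 172 ± 13.9 CPM in A498, 65.8 ± 18.0 in 769-P, 34.1 ± 3.27 in CAKI-2 and 28.1 ± 5.38 in 786-O (SD, n = 3). FGF18, a ligand of FGFR3, was at 55.6 ± 5.31 CPM in CAKI-2 and at most 0.293 in the other line means. FGF5 was at 8.19 CPM in 786-O and at most 1.51 elsewhere. In 769-P, the line with the highest FGFR3, FGF18 was at 0.293 CPM.

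DDR1 and PTK7 had the widest line ranges of the tested receptors with counts in every library. DDR1 (chr6:30844198-30867933, plus strand), a collagen receptor, was at 465, 380 and 421 CPM in the sgCtrl and sgKDM5C libraries of CAKI-2 and at 459 and 407 in its sgKDM5D libraries. A498 read 182, 226 and 227 CPM. 786-O read 44.5, 71.3, 41.9, 45.5 and 45.6 CPM, and 769-P only 1.28, 0.960 and 1.69 CPM, from 27 to 41 counts. No pair of lines overlapped. All 6 line pairs passed in edgeR, from 0.9997 for CAKI-2 over A498 (SE 0.172, adjusted p = 0.000137) to 8.34 for CAKI-2 over 769-P (SE 0.252, adjusted p = 6.52e-12). The collagen ligand genes did not follow that order: COL4A1 and COL4A2, which encode the chains of basement membrane collagen, were highest in 769-P (1191 and 1975 CPM) and lowest in A498 (182 and 483 CPM). COL1A1, a fibrillar collagen, was at 33.1 CPM in A498 and at most 8.22 in the other line means.

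PTK7 (chr6:43044045-43129457, plus strand), a pseudokinase of the Wnt planar polarity pathway, was near the detection limit in 2 lines. In CAKI-2 it read 139, 110.2, 102, 161 and 132 CPM, and in 769-P 39.7, 45.2 and 44.5. In 786-O the counts were 39 in sgCtrl, 6 and 18 in sgKDM5C and 13 and 6 in sgKDM5D, or 1.47, 0.205, 0.647, 0.427 and 0.221 CPM. In A498 they were 8, 24 and 20, or 0.340, 0.901 and 0.761 CPM. CAKI-2 exceeded 769-P by 1.43 (SE 0.162, adjusted p = 2.53e-06), 769-P exceeded 786-O by 6.06 (SE 0.233, adjusted p = 6.80e-11) and 786-O and A498 differed by 0.05 (95% interval -0.71 to 0.81, edgeR).

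The 250 bases before the farthest 5′ start of PTK7, PDGFRA and KIT are shown because PTK7 was abundant in 2 lines and at few counts in the others, and because PDGFRA and KIT, low in all lines, had nearly all of their counts in CAKI-2. They are from the RefSeq promoter table (GRCh38.p14, plus strand), 5′ to 3′, with CG dinucleotides in capitals. The windows are chr6:43076064-43076313 for PTK7, chr4:54229043-54229292 for PDGFRA and chr4:54657707-54657956 for KIT.
PTK7: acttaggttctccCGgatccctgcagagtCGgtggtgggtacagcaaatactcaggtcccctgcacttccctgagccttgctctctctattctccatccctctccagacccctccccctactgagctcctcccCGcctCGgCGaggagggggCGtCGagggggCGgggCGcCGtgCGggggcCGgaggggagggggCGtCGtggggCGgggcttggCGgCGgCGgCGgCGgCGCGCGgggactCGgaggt
PDGFRA: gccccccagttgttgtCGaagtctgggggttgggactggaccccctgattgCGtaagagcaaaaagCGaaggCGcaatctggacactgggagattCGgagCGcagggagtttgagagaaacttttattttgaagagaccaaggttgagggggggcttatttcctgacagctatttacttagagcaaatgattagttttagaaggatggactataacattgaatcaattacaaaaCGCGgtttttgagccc
KIT: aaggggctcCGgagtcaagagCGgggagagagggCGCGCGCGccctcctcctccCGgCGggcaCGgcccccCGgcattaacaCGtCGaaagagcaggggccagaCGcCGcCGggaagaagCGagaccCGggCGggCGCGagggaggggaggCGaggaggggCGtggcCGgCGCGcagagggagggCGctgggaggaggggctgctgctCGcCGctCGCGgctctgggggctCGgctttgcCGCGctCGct
The PTK7 window held 24 CG dinucleotides, that of KIT 34 and that of PDGFRA 8, against a median of 11 over 35116 promoters of the table. Of all promoters, 76.3% held fewer than PTK7, 93.2% fewer than KIT and 43.7% fewer than PDGFRA. The core hypoxia response motif GCGTG or ACGTG was searched on both strands. KIT held both, PTK7 and PDGFRA held neither, and 32.2% and 18.5% of all promoters held GCGTG and ACGTG. No measurement of binding or methylation at these windows was used here.

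KIT and PDGFRA, neighbours on chromosome 4 and both targets of multikinase inhibitors, had counts in CAKI-2 and almost nowhere else. PDGFRA (chr4:55095447-55164412, plus strand) had 43 counts in CAKI-2 sgCtrl, 32 and 46 in sgKDM5C and 29 and 41 in sgKDM5D. It had 1 count in A498 sgCtrl and 0 in each other library of A498, 786-O and 769-P. The CAKI-2 libraries were at 1.06 to 1.45 CPM, a low level even so. Against the 3-count limit over a line, the CAKI-2 level of PDGFRA was at least 31.1-fold higher than that of 786-O and 28.5-fold higher than that of 769-P. These minima take the CAKI-2 counts as exact. The ratio of PDGFRA to A498 was 85.1, with a 95% counting interval of 14.99 to 3388 that covers the error of both counts.

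KIT (chr4:55523434-55606949, plus strand), the receptor of stem cell factor, had 7 counts in CAKI-2 sgCtrl, 8 and 12 in sgKDM5C and 6 and 5 in sgKDM5D. It had 1 count in A498 sgKDM5C guide 4, 1 in 769-P sgKDM5C guide 4, and 0 elsewhere. With the CAKI-2 counts again taken as exact, KIT was at least 6.93-fold higher there than in 786-O. Its ratio was 19.0 to A498 (3.13 to 777) and 19.1 to 769-P (3.14 to 780.3), in intervals that cover the error of both counts. KITLG, which encodes stem cell factor, was by contrast expressed in every line, at 40.5 ± 3.62 CPM in CAKI-2, 24.9 ± 2.52 in 786-O, 10.2 ± 1.15 in A498 and 8.72 ± 2.13 in 769-P (SD, n = 3). Of the 4 mast cell markers, genes of another cell type that carries KIT, CPA3 and MS4A2 were at 0 in CAKI-2. The other 2 had counts there, and the markers summed to at most 0.0780 CPM in any library of that line.

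PDGFRB (chr5:149493402-149535435, minus strand), which marks pericytes and fibroblasts in tumours, was low throughout. It had 103, 141 and 240 counts in 769-P, or 4.24, 5.01 and 9.87 CPM, and 50 to 117 counts in CAKI-2, at 1.95 to 3.14 CPM. In 786-O and A498 it had 8 to 15 counts, at 0.287 to 0.552 CPM. 769-P exceeded CAKI-2 by 1.26 (SE 0.269, adjusted p = 0.000866) and CAKI-2 exceeded 786-O by 2.79 (SE 0.345, adjusted p = 6.33e-06), while 786-O and A498 differed by 0.17 (95% interval -0.80 to 1.14, edgeR). The 5 pericyte and fibroblast markers summed to 18.9 to 56.3 CPM in 769-P, 13.01 to 19.5 in CAKI-2, 32.5 to 40.6 in A498 and 6.29 to 10.1 in 786-O. ACTA2 was the highest of the 5 in each library, whereas DCN and LUM, which define fibroblasts, were at most 0.883 CPM in any library and at 0 in CAKI-2. Their part in the PDGFRB level was not tested.

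Per length, PDGFA, PDGFB and PDGFC stood above both of their receptors in each line. PDGFB averaged 161 ± 12.3 CPM in 769-P, 135 ± 28.0 in 786-O, 81.5 ± 5.59 in CAKI-2 and 15.6 ± 1.75 in A498 (SD, n = 3). PDGFC was at 41.8 to 134 CPM and PDGFA at 20.2 to 50.7 CPM in the line means, and PDGFD at 11.6 CPM in CAKI-2 and at most 1.81 elsewhere. Per length, PDGFB was at 40.3 RPKM in 769-P, where PDGFRB was at 0.894 and PDGFRA at 0. PDGFD was at 0.284 RPKM there and at 0.0368 in 786-O, below PDGFRB in both lines.

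**Figure D2:**
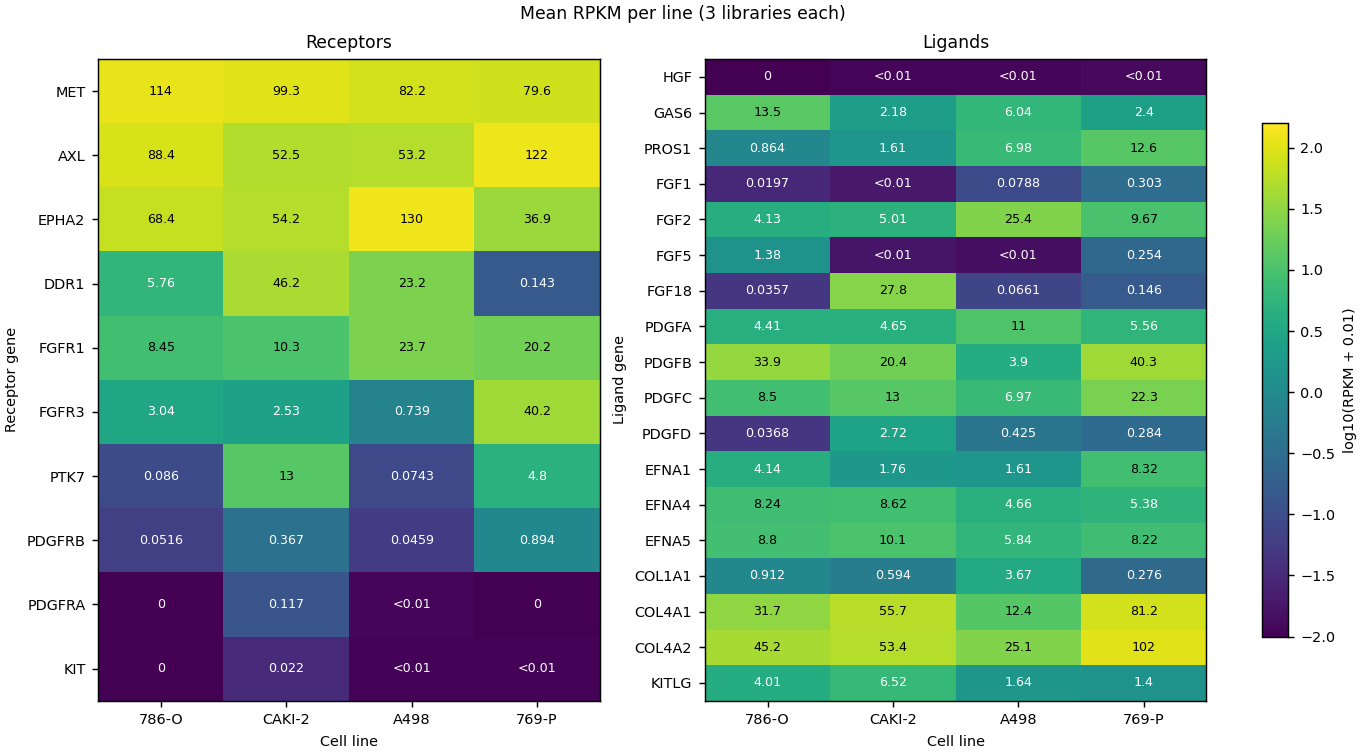
Mean RPKM of the 10 receptors (left) and of 18 ligand genes (right) in each line, over the sgCtrl and both sgKDM5C libraries, coloured by log10(RPKM + 0.01) and with each value written in its cell. HGF is near 0 in all lines while MET is at 79.6 to 114 RPKM, and KIT and PDGFRA are near 0 while KITLG and PDGFA to PDGFC are expressed.

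At least 5 of the 9 tested receptors passed in each of the 6 line pairs, where 52.4 to 71.1% of all genes passed. There were 5 between 786-O and CAKI-2, where 65% of all genes tested passed. The count was 6 between 786-O and A498 (70% of all genes), 7 between 786-O and 769-P (52.4%), 7 between CAKI-2 and A498 (67.3%), 9 between CAKI-2 and 769-P (65.8%) and 6 between A498 and 769-P (71.1%). The median log2 difference of the receptors ran from -0.47 for 786-O against 769-P to 0.9997 for CAKI-2 against A498, where the medians over all genes were -0.01 and 0.01. Over all 6 line pairs the median over all genes ran from -0.16 to 0.15. The receptor counts and medians include PDGFRA, which reached the minimum of 60 counts only through CAKI-2. Its shared libraries there held 121 counts, against 0 in 786-O, 1 in A498 and 0 in 769-P. PDGFRA was called in the 3 pairs with CAKI-2, which is not independent of that filter. In the remaining pairs it had too few counts for a fold to be given.

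Targeting KDM5C changed no receptor at an adjusted p of 0.05 in edgeR, in any line or in the mean over lines. Of all genes, 0.00991% passed in 786-O, 0.00496% in A498, 0.00496% in 769-P, 0% in CAKI-2 and 0.00991% in the mean over lines. At an unadjusted p under 0.05, 2 receptors passed in 786-O (2.92% of all genes), 1 in A498 (5.55%), 0 in 769-P (3.32%), 0 in CAKI-2 (1.94%) and 0 in the mean over lines (5.18%). The sgKDM5C difference of MET was between -0.01 and 0.07 in the 4 lines, and the mean over lines was 0.02 with a 95% interval of -0.18 to 0.22. For AXL that mean was -0.03 (-0.39 to 0.32), for EPHA2 -0.02 (-0.28 to 0.25), for FGFR1 -0.07 (-0.30 to 0.16) and for DDR1 0.12 (-0.21 to 0.46).

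PTK7 in 786-O came closest to a change. Each targeted library, with 6, 18, 13 and 6 counts, lay below the 39 counts of the control, and the fitted sgKDM5C difference was -1.79 (SE 0.438, unadjusted p = 0.00113, adjusted p = 0.601, edgeR). With the study's own rule, a log2 fold change beyond 1 at an unadjusted p under 0.05, PTK7 and FGFR3 in 786-O were the 2 receptors past it, and 2.12% of all genes were. In A498 PTK7 lay the other way, at 24 and 20 counts against 8, a difference of 1.28 (SE 0.569, unadjusted p = 0.0417, adjusted p = 0.882), where 1.89% of all genes were past that rule. In CAKI-2, where PTK7 was abundant, both sgKDM5C libraries (110.2 and 102 CPM) lay below the control (139 CPM), a difference of -0.39 (95% interval -0.89 to 0.11). In 769-P the difference was 0.18 (-0.34 to 0.70).

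The test for PTK7 differences between lines gave an unadjusted p of 0.00289 and an adjusted p of 1 (edgeR), where 2.29% of all genes were under an unadjusted p of 0.05. The 786-O result depended on the analysis. Without the minimum of 60 counts the adjusted p was 0.00391, with DESeq2 0.0352, and without guide 5 0.0127 by edgeR (log2 -2.81). These settings also raised the calls over all genes, from 2 of 20175 to 136 of 40196 without the minimum, 22 of 17828 with DESeq2 and 205 of 20018 without guide 5.

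FGFR3 was the other receptor with an unadjusted difference. In 786-O it had 230 counts in sgCtrl against 581 and 436 in sgKDM5C, or 8.65 CPM against 19.9 and 15.7. The fitted difference was 1.04 (SE 0.356, unadjusted p = 0.0113, adjusted p = 1, edgeR), and the adjusted p was 0.0108 without the minimum of 60 counts. In CAKI-2 FGFR3 was at 15.8 CPM in sgCtrl and at 10.8 and 10.1 in sgKDM5C, a difference of -0.60 (SE 0.327, unadjusted p = 0.0878, adjusted p = 1). A498 (0.14, 95% interval -0.74 to 1.01) and 769-P (-0.04, -0.72 to 0.64) had intervals around 0. The difference between lines had an unadjusted p of 0.0318 and an adjusted p of 1.

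PDGFRB had its largest sgKDM5C difference in 769-P, at 0.81 (SE 0.407, unadjusted p = 0.0676, adjusted p = 1, edgeR), which came mostly from guide 5 (9.87 CPM) rather than guide 4 (5.01 CPM, control 4.24). The pericyte and fibroblast markers summed to 18.9 CPM in that control, 56.3 in guide 4 and 23.2 in guide 5. In CAKI-2 the PDGFRB difference was 0.52 (95% interval -0.37 to 1.42). PDGFRA could be fitted for genotype in CAKI-2 only, with -0.11 for sgKDM5C (-1.17 to 0.94).

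**Figure D3:**
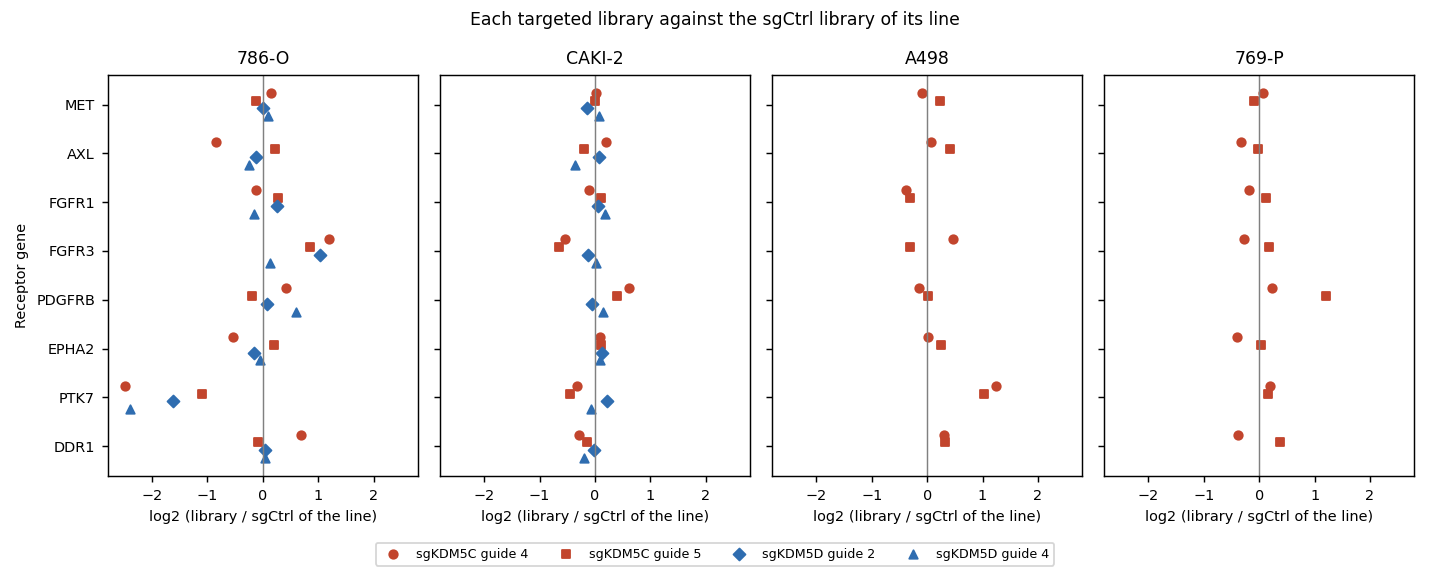
Log2 ratio of each targeted library to the sgCtrl library of its line for 8 receptors, with red circles and squares for sgKDM5C guides 4 and 5 and blue diamonds and triangles for sgKDM5D guides 2 and 4. In 786-O all 4 PTK7 points lie between -2.48 and -1.10, whereas AXL and EPHA2 have guide 4 and guide 5 of sgKDM5C on opposite sides of 0.

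In 786-O the 2 sgKDM5C guides lay at opposite ends of the 5 libraries of the line for MET, AXL, EPHA2 and DDR1. The share of all genes with such a split was not computed. Over all genes these 2 libraries were the most unlike pair within any line, with a chi-square per gene of 69 where pairs ranged from 6.61 to 69. That is a different measure, and whether the split was particular to the receptors was not tested. AXL was at 279 CPM with guide 4 and 581 with guide 5, EPHA2 at 205 and 344, DDR1 at 71.3 and 41.9, and MET at 904 and 744. KDM5C RNA was at 26.2% of the control with guide 4 and 47.4% with guide 5. The sgKDM5C difference of AXL in 786-O was -0.22 (95% interval -0.93 to 0.48).

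Targeting KDM5D gave 0 receptors at an adjusted p of 0.05 in edgeR in either line, where 0.0149% of all genes passed in 786-O and 0% in CAKI-2. At an unadjusted p under 0.05, 1 receptor passed in 786-O (1.82% of all genes) and 0 in CAKI-2 (0.773%). That receptor was PTK7, at -2.14 (SE 0.456, unadjusted p = 0.000345, adjusted p = 0.815, edgeR). It was also past the rule that the study used for sgKDM5C against sgCtrl, like 1.52% of all genes. For its KDM5D mutants the study used an adjusted p instead. For PTK7 DESeq2 gave an adjusted p of 0.0124, and edgeR without the minimum count gave 0.000427. In CAKI-2 the PTK7 difference was 0.08 (95% interval -0.43 to 0.58). The sgKDM5D effect on PTK7 differed between CAKI-2 and 786-O by 2.22 (SE 0.516, unadjusted p = 0.000745, adjusted p = 1, edgeR). The sgKDM5C and sgKDM5D values of 786-O share the sgCtrl library with its 39 counts, so a drop in the targeted cells and a high control cannot be told apart.

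FGFR3 in 786-O was at 17.8 and 9.45 CPM with the sgKDM5D guides against 8.65 in the control, a difference of 0.66 (95% interval -0.10 to 1.42). For the other tested receptors, the sgKDM5D differences ran from -0.19 (AXL) to 0.42 (PDGFRB, -0.98 to 1.81) in 786-O and from -0.13 (AXL) to 0.14 (PDGFRA, -0.93 to 1.20) in CAKI-2. The study reported PTK7 as raised and FGFR3 and PDGFRB as lowered in KDM5D mutant 786-O cells, from other libraries and with another threshold. Here the 786-O differences had the opposite sign: -2.14 for PTK7, 0.66 for FGFR3 and 0.42 for PDGFRB. PTK7 and PDGFRB rest on few counts in 786-O, and the reason for the unlike signs was not tested.

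Comparing the targeted cells directly, sgKDM5C against sgKDM5D, does not use the control library. No receptor passed an adjusted p of 0.05 in edgeR, where 0.0644% of all genes passed in 786-O and 0% in CAKI-2. At an unadjusted p under 0.05 the receptors numbered 0 in 786-O (4.78% of all genes) and 1 in CAKI-2 (3.38%). The latter was PTK7, lower with sgKDM5C by 0.47 on the log2 scale (110.2 and 102 CPM against 161 and 132, with no overlap, SE 0.193, unadjusted p = 0.0304, adjusted p = 1). In 786-O the PTK7 difference was 0.35 with a 95% interval of -0.69 to 1.39. MET differed by -0.03 (-0.36 to 0.29) in 786-O and 0.04 (-0.28 to 0.37) in CAKI-2.

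**Figure D4:**
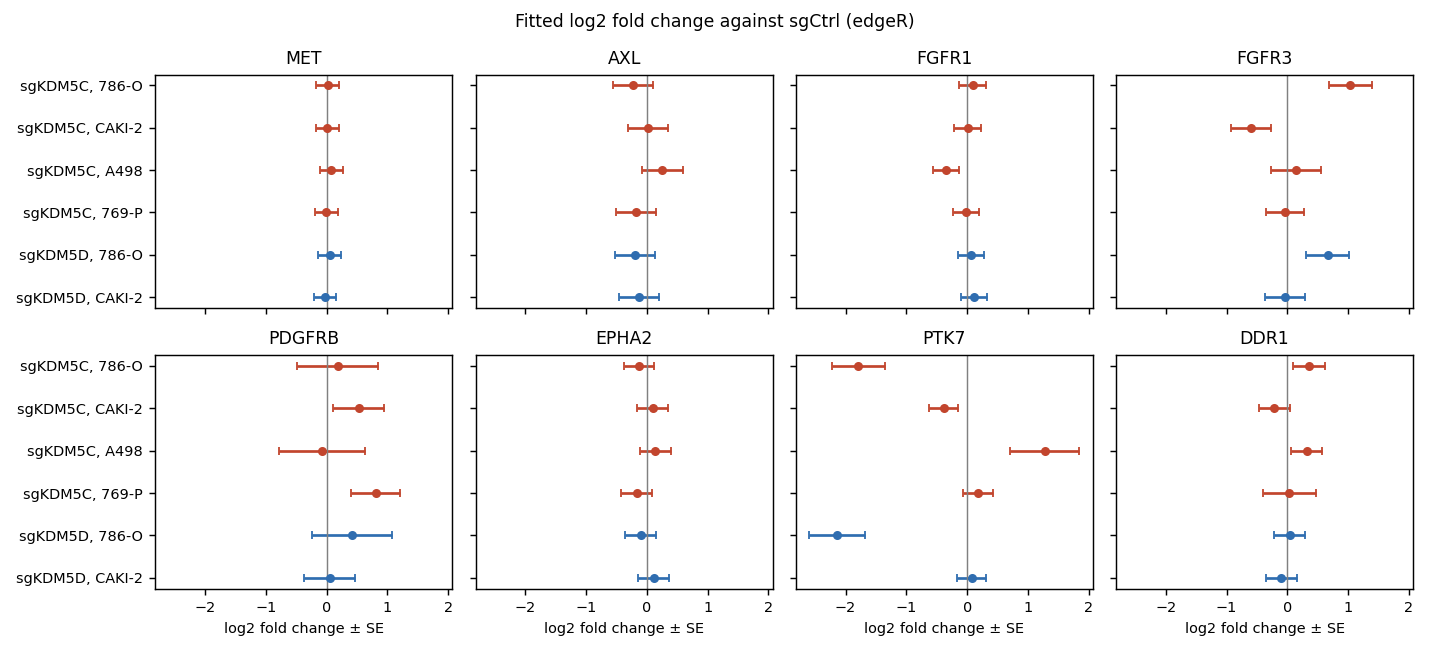
Fitted log2 fold change against sgCtrl for 8 receptors, with points for the estimate and bars for ± SE, in red for sgKDM5C in each of the 4 lines and in blue for sgKDM5D in 786-O and CAKI-2. MET, AXL, FGFR1 and EPHA2 lie within 0.35 of 0 in each comparison, and PTK7 runs from -2.14 to 1.28.

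No gene of the wider receptor pathway passed for genotype. Of the 38 other receptor tyrosine kinases tested, 20 ligands, 12 activators, co-receptors and sheddases, 14 adaptors and effectors, 17 negative regulators and 9 ERK output genes, 0 passed an adjusted p of 0.05 in edgeR in any of the 10 genotype comparisons. At an unadjusted p under 0.05 in the mean sgKDM5C effect over lines, 6 ligands, 1 other receptor and 1 adaptor passed, with 0 in each other list, where 5.18% of all genes did. The median log2 difference of the ligands in that comparison was 0.13, beside 0.04 over all genes. The ligands with the smallest p were COL1A1 (0.78, SE 0.215, adjusted p = 0.836) and COL4A2 (0.37, SE 0.103, adjusted p = 0.836). Among the other receptors these were ROR1 (0.32, adjusted p = 0.901) and EPHB4 (0.24, adjusted p = 0.901), and among the adaptors FRS3 (-0.34, adjusted p = 0.901) and SOS1 (0.23, adjusted p = 0.901).

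Among the activators and co-receptors, ADAM17, a sheddase that releases receptor ectodomains, differed by 0.15 and NRP1, a co-receptor, by 0.19 (both adjusted p = 0.901, edgeR). The negative regulators ERRFI1 and SPRED1 differed by 0.21 and 0.16 (adjusted p = 0.901), and EGR1 and IER3, early genes of ERK signalling, by 0.39 and 0.15 (adjusted p = 0.901 and 0.917). The smallest adjusted p over these lists and comparisons was 0.207, for INSR, the insulin receptor, which was higher with sgKDM5C than with sgKDM5D in CAKI-2 by 1.48 (SE 0.277).

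Only the 2 pathway genes with the smallest p per list and comparison were looked at further. Those under an unadjusted p of 0.01, with no adjusted call in edgeR, are given without a share of all genes, which was not computed. In A498 sgKDM5C they were EFNA2 (-2.63), EPHA7 (1.20), ROR1 (0.77) and PDGFC (0.65). In 769-P they were COL1A1 (1.59) and EPHB4 (0.88), in CAKI-2 NRP1 (0.995), and for sgKDM5D in CAKI-2 INSR (-1.05). For sgKDM5C against sgKDM5D they were EPHB1 (-2.05), DUSP5 (-0.54) and SPINT2 (0.48) in 786-O, and INSR and HPN (-1.58) in CAKI-2.

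Between lines, genes downstream of the receptors differed widely. The feedback phosphatase genes DUSP5 and DUSP4 were at 365 ± 18.7 and 120 ± 14.9 CPM in CAKI-2 and at 5.81 ± 0.802 and 2.72 ± 0.544 in 769-P (SD, n = 3). SPRY1, an inhibitor of RAS activation, was at 16.9 CPM in CAKI-2 and 0.292 in 786-O. Of the ERK output genes, ETV4 was at 68.6 CPM in CAKI-2 and 42.5 in A498 against 2.01 in 769-P, EGR1 at 42.9 in A498 against 5.22 in 786-O, and PHLDA1 at 328 in A498 against 48.6 in 786-O. The adaptors with the widest ranges were PIK3R1, at 61.1 CPM in CAKI-2 and 6.85 in A498, SRC, at 613 in A498 and 109 in 786-O, and SHC1, at 436 in A498 and 112 in CAKI-2. By edgeR, 7 of the 9 ERK output genes were lower and 2 higher in 786-O than in CAKI-2, and 10 of the 17 negative regulators were lower and 5 higher, where 35.8% of all genes were lower and 29.2% higher. For the 9 ERK output genes the other line pairs gave 6 lower and 2 higher in 786-O against A498, 2 lower and 3 higher in 786-O against 769-P, and 3 lower and 3 higher in CAKI-2 against A498. They gave 3 lower and 5 higher in CAKI-2 against 769-P and 2 lower and 5 higher in A498 against 769-P. The negative regulators called in these 5 pairs numbered 12 to 15 of 17. Of all genes, 70% passed in either direction in 786-O against A498 and 52.4% in 786-O against 769-P. The share was 67.3% in CAKI-2 against A498, 65.8% in CAKI-2 against 769-P and 71.1% in A498 against 769-P.

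Some other genes tracked the receptors over all 16 libraries, given here as a description since libraries of a line share most of their pattern. Over 14628 genes, the Pearson correlation of log2 CPM was highest with PTK7 for CXADR (0.995) and NTN4 (0.991) and with DDR1 for MFGE8 (0.995) and FBXO6 (0.994). The closest to FGFR3 were RAB4A (0.987) and GGT2P (0.981), to FGFR1 AMY2B (0.985) and IDNK (0.977), to EPHA2 SLC3A2 (0.983) and TRIP6 (0.975), and to PDGFRB SLC3A1 (0.979) and ZNF785 (0.977). AXL was closest to RPL17 (0.960) and GATAD2A (0.946), and MET to FAM3C and TENM2 (both 0.941). The lower values for MET and AXL belonged to the receptors with the smallest line ranges.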

How the data were processed

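RNA of the 16 libraries was sequenced by the authors (TruSeq Stranded libraries, paired reads). The deposited values are raw read counts per gene. Per the labels and the submitters' processing notes, reads were trimmed with Trimmomatic 0.38 and aligned with STAR 2.5.2b to GRCh37, while the counter, annotation release and strand setting are not given in the sources used here. Of 57773 gene IDs, 55538 matched the GENCODE annotation on GRCh37, which gave symbols, coordinates and exon lengths.

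Genes with at least 60 counts in all were kept (20175), after the study's filter. edgeR 4.0.16 (R 4.3.3) was fitted on the counts with TMM scaling and a mean per group over all 16 libraries, followed by the quasi-likelihood F-test and Benjamini-Hochberg adjustment over all genes (threshold 0.05). Line comparisons weighted sgCtrl and sgKDM5C by their libraries. A gene's fold was not given where both arms held at most 3 counts. The step was tested on simulated data. DESeq2 1.42.0, other scaling, filters, the guide number as a block and leaving out each targeted library were alternatives. The single sgCtrl library of a line could not be left out of its comparisons.

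The receptors and gene lists were chosen with earlier results of these data known. All receptors were named, with ligands of a mean of at least 20 counts. From each other list the naming rule took, per genotype comparison, the called genes or the 2 with the smallest p, and between lines the 3 widest ranges. Of the 120 genotype entries it gave, those of the mean over lines and those with an unadjusted p under 0.01 are printed, a restriction made after the values were seen. A depth of 23398449 to 41617439 counts per library limits the precision of genes with few counts.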

Additional observations from a re-analysis of the deposited data

How the results depend on the processing

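No result changed direction among those that passed a threshold. The number of receptors called, 0 in each of the 10 genotype comparisons, rose under some alternatives. Without a filter beyond 1 count it was 2 for sgKDM5C in 786-O, 2 for the sgKDM5C difference between lines and 1 for sgKDM5D in 786-O. With DESeq2 it was 1 in each of these 3. Only targeted libraries could be left out in turn, and without guide 5 the PTK7 difference for sgKDM5C in 786-O was -2.81 on the log2 scale. The cause was not tested. PTK7 or FGFR3 made up each of these calls. Of 156 such counts under alternatives, 149 stayed within 1.5 times the reported count. Of 1187 fold changes of a receptor under an alternative, 9 lost and 17 gained a call. The test for sgKDM5C differences between lines gives no fold change and is not among them. Of the fold changes called in neither fit, 79 changed sign, all with a reported size of at most 0.377 on the log2 scale. The order per length kept 8 of 10 places in the mean over lines with the longest transcript.

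Guide numbers were taken as replicate numbers. The deviations of same-numbered libraries correlated at -0.223 to 0.291 between lines for sgKDM5C and at -0.0562 for sgKDM5D. The sign was thus not the same in all pairs of lines, and a shared guide effect was not tested. With the guide number as a replicate block, the receptors called stayed at 0 in each genotype comparison, and AXL between 786-O and 769-P passed (-0.50, adjusted p = 0.0499 by edgeR). Over all genes the block left 1 to 2 calls for sgKDM5C in 786-O (1 with it, 2 without). Without the count filter 136 genes were called there and 22 with DESeq2, for sgKDM5D in 786-O 46 and 6 against 3, and for sgKDM5C against sgKDM5D in 786-O 297 and 55 against 13. Without guide 5 of 786-O sgKDM5C the first of these counts was 205 and the last 308. Without sgKDM5D guide 2 or 4 of 786-O the last was 6 or 84, and without guide 4 the count for sgKDM5D was 19. PTK7 in 786-O and A498, PDGFRB in 786-O and A498, and KIT and PDGFRA everywhere rest on few counts, which limits what depth can show for them.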

Other observations

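Other receptor tyrosine kinases rivalled the described ones in some lines. FGFR4, which binds FGFs of the endocrine group among others, was at 67.5 RPKM in 769-P, place 3 of 58, and at 36.8 RPKM in CAKI-2. EGFR was at 35.2 RPKM in A498, 26.7 in CAKI-2, 23.7 in 786-O and 17.5 in 769-P. EPHA7 averaged 458 ± 100.4 CPM in 769-P and at most 6.82 CPM in the other line means, the widest range of the list. MST1R, the closest relative of MET, was at 44.6 ± 2.36 CPM in A498 and at most 0.438 elsewhere, and ROR2 at 35.5 ± 8.76 CPM in 786-O and 26.0 ± 4.06 in CAKI-2 against 0 in 769-P (SD, n = 3). INSR had 0 counts in 786-O and line means of 7.68 to 13.8 CPM in the other lines.

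The vascular receptors that most kidney cancer inhibitors were designed against were near 0 in these cultured cells. KDR reached a line mean of at most 0.148 CPM, FLT1 0.0764 CPM and FLT4 0.764 CPM. VEGFA, a ligand of KDR and FLT1, averaged 1435 CPM in A498, 378 in 786-O, 190 in CAKI-2 and 54.5 in 769-P. These genes were named for their role and fall outside the naming rule.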
